A study of Homo sapiens with 15 samples.

Results

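HT115 cells induced to express the SOX9 mutant M303 were compared with HT115 cells induced to express wildtype SOX9, across all genes that passed an expression filter. HT115 is an established human colorectal cancer line. The libraries were chosen by their labels alone: 3 titled M303 and 3 titled CSOX9, whose expression label says wildtype SOX9 (called SOX9_WT here), which are 6 of the 15 libraries of the series. The series text calls M303 a truncated form of SOX9 and gives no position for the truncation. The mutants M228 and M379, and a GFP control, have 3 libraries each and are used only to place the results; the labels do not explain the names M228 and M379. All 5 groups were treated alike with doxycycline at 0.5 µg/ml for 24 h, which switches on the introduced gene, and the SOX9 forms carry a V5 tag. Libraries were made from poly(A) RNA and counted per gene. The labels name neither the construct's promoter nor whether each line is 1 clone. They give triplicates, although the series text mentions duplicates, and they do not tie replicates to separate cultures. The p-values thus measure library-to-library spread, which may be technical.

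SOX9 is a transcription factor that binds DNA through an HMG box and activates genes through domains that lie outside the box. In the intestine it is made in stem and progenitor cells at the base of the crypt, and it is needed for Paneth cells, the lysozyme-secreting cells of the crypt. In cartilage it switches on collagen genes together with SOX5 and SOX6.

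The 3 M303 libraries held 21310924 to 31704249 counted reads and the 3 SOX9_WT libraries 10784506 to 19781935, so that 3 reads correspond to 0.0896 to 0.142 CPM in M303 and to 0.146 to 0.287 CPM in SOX9_WT. CPM is the read count scaled to the size of its library, here with TMM factors, and each gene is given for replicates 1, 2 and 3 in that order. The 12 epithelial markers summed to 14528 to 19238 CPM in M303 and 14482 to 18832 CPM in SOX9_WT. The 9 fibroblast markers summed to 4.0 to 5.64 CPM in M303 and 3.92 to 4.89 CPM in SOX9_WT. Among them COL3A1, a fibrillar collagen chain, had 0.567, 0.731 and 1.57 CPM in M303 and 0.0973, 0.271 and 0.191 CPM in SOX9_WT, without overlap (2.34 ± 0.63, adjusted p = 0.0171 with replicate number as a block and 0.174 without it). Immune markers stayed at or below 1.19 CPM in M303 and 1.02 CPM in SOX9_WT, and endothelial markers at or below 1.1 CPM in M303 and 1.60 CPM in SOX9_WT. Replicates with the same number varied together weakly in M303 and SOX9_WT (r from 0.101 to 0.358). Results of a fit with replicate number as a block are therefore given beside the main fit. They are given for members of the gene lists whose call they change and for the genes with the largest such changes. GFP libraries were the most variable group, with a median dispersion of 0.0975, against 0.0232 in M303 and 0.0104 in SOX9_WT. In bulk RNA, fewer cells making a transcript and less of it per cell cannot be told apart.

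SOX9 itself (ENSG00000125398, GRCh38 chromosome 17, 72121020 to 72126416, plus strand) was measured first. Its level was 2949, 3037.5 and 3039.3 CPM in M303, against 242.88, 210.22 and 185.81 CPM in SOX9_WT. The groups lay far apart, with a log2 fold change of 3.82 ± 0.20 (standard error, n = 3 each, edgeR adjusted p = 4.47e-08). The GFP libraries had 97.62, 100.77 and 157.92 CPM, and SOX9_WT minus GFP was 0.84 ± 0.18 and not called (edgeR adjusted p = 0.11). The labels do not say how reads of the introduced copy were assigned, and every difference below is also one between unequal SOX9 read levels.

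Of 16160 genes tested, 62 were called by edgeR's quasi-likelihood test at an adjusted p under 0.05, which is 0.384% of them. The 34 called higher in M303 were 0.21% of the genes tested and the 28 called lower 0.173%. With the replicate block 259 genes were called, or 1.6%, of which 117 were higher and 142 lower. The 3 M303 libraries did not overlap the 3 SOX9_WT libraries at 2992 genes, or 18.5%. The count fell whichever of the 6 libraries was left out. Without M303 replicates 1, 2 or 3 it was 33, 20 and 14. Without SOX9_WT replicates 1, 2 or 3 it was 10, 9 and 19. Each of these fits has 1 library fewer in a group. The weight of a single library and the loss of power thus cannot be told apart. The count was 219 without GFP replicate 2. That library is in neither group, but it enters the filter, the scaling and the shared estimate of spread. The count was 170 with DESeq2, 273 without a filter on low counts and 121 with the M303 and SOX9_WT libraries alone. ADRA2A, CALD1, CHST6, CXCR4, SBSPON and SOX9 were called in each of the 6 fits without 1 M303 or SOX9_WT library. Of the other called genes, 27 were called in 0 of the 6 fits and the rest in 1 to 5. The plot of fold change against mean level places SOX9 and LYZ at the abundant end and VTCN1 and CHST6 at the scarce end.

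**Figure D1:**
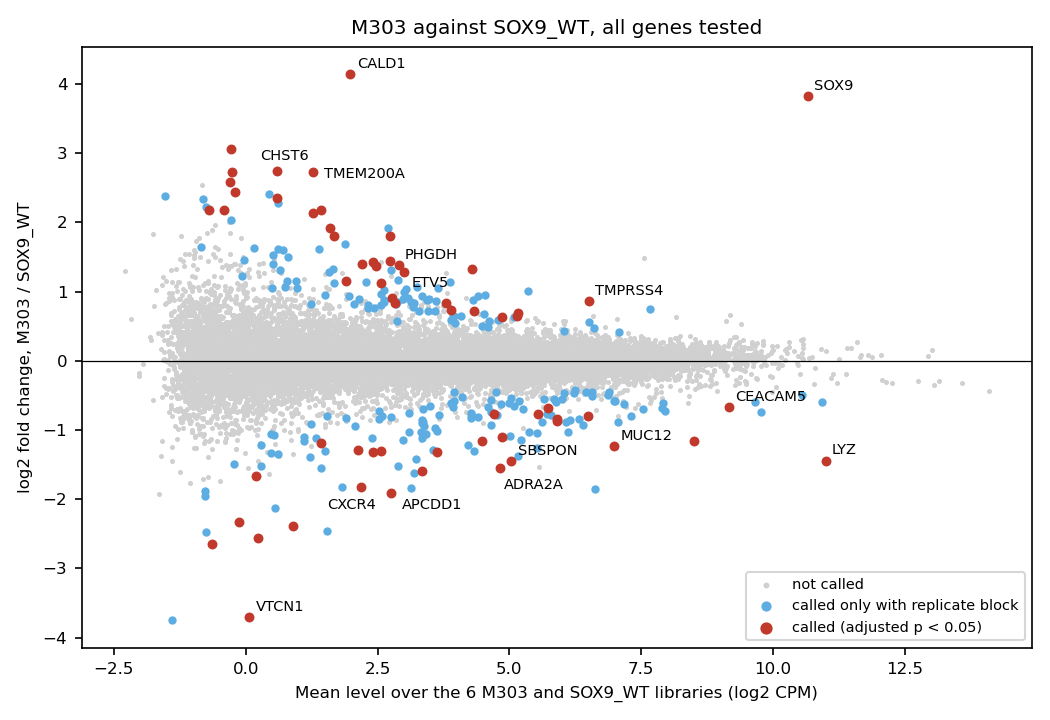
Log2 fold change of M303 over SOX9_WT for each of the 16160 genes tested, against the mean level over the 6 libraries in log2 CPM. The 62 genes called are red, those called only with the replicate block are blue, and SOX9 and CALD1 stand highest at 3.82 and 4.14.

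CALD1, MSN, PACSIN3, NHS and PPP1R14C rose in M303, while the actin-associated genes ENC1 and GAS7 fell. CALD1 (ENSG00000122786), which encodes the actin- and myosin-binding protein caldesmon, had 6.45, 7.51 and 8.68 CPM in M303, against 0.778, 0.136 and 0.191 CPM in SOX9_WT. All M303 libraries were several times above the highest SOX9_WT library, and the log2 fold change was 4.14 ± 0.45 (adjusted p = 0.000473). These are few molecules in SOX9_WT, at 16, 2 and 2 reads. MSN, whose product moesin ties actin to the membrane, had 7.22, 7.35 and 9.34 CPM in M303 and 3.06, 2.44 and 3.82 CPM in SOX9_WT (1.37 ± 0.27, adjusted p = 0.0406). PACSIN3, an adaptor that bends membranes during endocytosis, rose by 1.44 ± 0.22, and NHS, a regulator of actin remodelling, by 2.36 ± 0.41 (adjusted p = 0.0123 and 0.0227). PPP1R14C, an inhibitor of protein phosphatase 1, rose by 0.91 ± 0.19 (adjusted p = 0.047). Of these 5 genes, CALD1 was called in each of the 6 fits with a library left out, PACSIN3 in 3, NHS in 1, and MSN and PPP1R14C in 0. CALD1 belongs to a list of 17 mesenchymal genes, of which 11 were tested. In that list CALD1 and CD200 were called higher, 0 members were called lower, ITGA5 was added with the block, and the median log2 fold change was 0.31, against 0.01 over all genes tested. ITGA5, an integrin subunit that binds fibronectin, had 7.55, 7.2 and 8.68 CPM in M303 and 3.16, 4.61 and 4.30 CPM in SOX9_WT (0.97 ± 0.22, adjusted p = 0.00964 with the block and 0.0792 without it). The fibroblast marker COL3A1 was also higher in M303 with the block, as given above, and its part in these results was not tested. VIM, ZEB1 and TWIST1 of the same list were too low to be tested.

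CHST6 (ENSG00000183196), a sulfotransferase that sulfates keratan sulfate chains, had 2.75, 2.31 and 2.85 CPM in M303 and 0.535, 0.271 and 0.287 CPM in SOX9_WT. The log2 fold change was 2.75 ± 0.35 (adjusted p = 0.00295), and the groups did not overlap, which was a condition for naming the gene. Apart from SOX9, CALD1 and CHST6 had the highest fold changes among called genes with a mean of at least 1 CPM. The 250 bases before their RefSeq starts are shown for that reason, with motif matches in capitals, read 5′ to 3′ on the gene's strand in GRCh38.p14. CALD1 is at chr7:134779384-134779633, plus strand, inside the span that Ensembl gives for the gene, whose first start lies further upstream. CHST6 is at chr16:75495442-75495691, minus strand.
CALD1: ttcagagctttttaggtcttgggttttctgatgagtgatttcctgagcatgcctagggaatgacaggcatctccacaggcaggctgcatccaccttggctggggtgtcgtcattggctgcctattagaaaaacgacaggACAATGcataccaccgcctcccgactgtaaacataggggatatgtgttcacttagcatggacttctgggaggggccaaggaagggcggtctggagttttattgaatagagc
CHST6: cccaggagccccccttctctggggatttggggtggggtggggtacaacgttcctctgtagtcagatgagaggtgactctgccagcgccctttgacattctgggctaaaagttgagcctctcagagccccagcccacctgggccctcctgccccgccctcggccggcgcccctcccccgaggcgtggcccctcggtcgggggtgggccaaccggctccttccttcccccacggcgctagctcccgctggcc
The motifs searched were ACAATG and ACAAAG, which are forms of the SOX core site, on both strands from 250 bases before to 50 after the start. ACAAAG is also the core of the TCF/LEF site, which reads CTTTGT on the other strand. CALD1 has ACAATG at position -111 from the start, and CHST6 has it on the opposite strand after the start, outside the bases printed.

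CD200, CD276, IFNGR2, HLA-DMB, KLRC2 and CD109, which encode cell surface or immune recognition proteins, rose in M303. Other called genes of that kind fell, such as VTCN1, a B7-family ligand, and the receptor gene CXCR4, both given below. CD200, an immune regulatory membrane protein, had 5.25, 4.54 and 3.56 CPM in M303 and 1.31, 0.679 and 0.86 CPM in SOX9_WT (2.18 ± 0.33, adjusted p = 0.0114). CD276, a B7-family immune checkpoint molecule, had 49.4, 43.1 and 39.8 CPM in M303 and 29.7, 26.3 and 26.4 CPM in SOX9_WT (0.69 ± 0.12, adjusted p = 0.028). IFNGR2, a subunit of the interferon gamma receptor, had 36.7, 37.1 and 32.5 CPM in M303 and 23.3, 22.4 and 22.5 CPM in SOX9_WT (0.64 ± 0.12, adjusted p = 0.0354). CD200, CD276 and IFNGR2 were each higher in every M303 library than in any SOX9_WT library. HLA-DMB, which helps to load peptides onto MHC class II molecules, rose by 3.06 ± 0.49, with 62, 30 and 31 reads in M303 and only 4, 3 and 1 in SOX9_WT (adjusted p = 0.0158). KLRC2, known as a receptor of natural killer cells, rose by 2.44 ± 0.45 (adjusted p = 0.03), with 25% of its exon bases shared with another gene on the same strand and near-identical paralogs, so its value is uncertain. CD109, a membrane-anchored TGF-beta co-receptor, rose by 1.80 ± 0.36 (adjusted p = 0.0431). CD200 was called in 4 of the 6 fits with a library left out, HLA-DMB in 2 and CD276, IFNGR2, KLRC2 and CD109 in 0. IFNGR2 was also not called without a filter on low counts, and 15.6% of its exon bases are overlapped by an antisense gene. In the list of 20 interferon and antigen presentation genes, 0 were called in either direction and the median was -0.02.

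PHGDH, HGD, CPVL and AOAH, which encode enzymes, rose in M303, while called enzymes such as SMPD3 and CYP4X1 fell. PHGDH, the first enzyme of serine synthesis, had 14.8, 8.97 and 8.49 CPM in M303 and 4.52, 3.32 and 4.59 CPM in SOX9_WT (1.38 ± 0.24, adjusted p = 0.023). Replicate 1 was the highest M303 library, and all 3 lay above SOX9_WT. Of 21 tested genes of serine synthesis and the ATF4 stress response, PHGDH was the 1 called, 19 had a fold change above 0 and the median was 0.21. SESN2, a stress-induced regulator of that list, was called only with the block (0.89 ± 0.22, adjusted p = 0.0435 with the block and 0.111 without it). SLC43A1, an amino acid transporter, was likewise called only with the block (0.87 ± 0.21, adjusted p = 0.0198 with it and 0.0928 without it). HGD, an enzyme of tyrosine breakdown, rose by 1.4 ± 0.23, CPVL, a carboxypeptidase, by 2.18 ± 0.37, and AOAH, which deacylates bacterial lipopolysaccharide, by 0.84 ± 0.16 (adjusted p = 0.0193, 0.0193 and 0.0373). PHGDH and CPVL were called in 2 of the 6 fits with a library left out, HGD in 1 and AOAH in 0.

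The transcription factors ETV5 and TBX2 rose. ETV5, an ETS factor induced by MAPK signalling, had 12.2, 9.28 and 12.3 CPM in M303 and 4.77, 4.75 and 4.39 CPM in SOX9_WT (1.28 ± 0.22, adjusted p = 0.0193). TBX2, a T-box repressor, rose by 2.18 ± 0.39 with 1.07, 1.19 and 0.759 CPM in M303 and 0.195, 0.271 and 0.191 CPM in SOX9_WT (adjusted p = 0.0245). In the list of MAPK output genes, ETV5 was the 1 called of 19 tested and the median was 0.07. EGR1 of that list was called with the block alone (0.59 ± 0.17, adjusted p = 0.0111 with the block and 0.255 without it), while DUSP6 (-0.19) and SPRY2 (-0.11) were not called. DUSP6 and SPRY2 were chosen after their values were seen. ETV5 and TBX2 were called in 1 of the 6 fits with a library left out.

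Other genes that rose cover membrane traffic, channels and secreted signals. TMPRSS4, a membrane serine protease, was the most abundant of them, with 107, 123 and 121 CPM in M303 and 66.8, 63.3 and 62.9 CPM in SOX9_WT (0.86 ± 0.12, adjusted p = 0.0065). CLGN, an endoplasmic reticulum chaperone, had 3.94, 3.39 and 4.55 CPM in M303 and 0.924, 0.814 and 0.955 CPM in SOX9_WT (2.13 ± 0.31, adjusted p = 0.0065). It was the 1 called of 18 tested chaperone and unfolded protein response genes, whose median was 0.06. LPAR1, a receptor for lysophosphatidic acid, rose by 1.16 ± 0.24, MCOLN2, a lysosomal cation channel, by 1.43 ± 0.22, and GDF11, a TGF-beta family ligand, by 0.72 ± 0.13 (adjusted p = 0.047, 0.0133 and 0.0296). AP1M1, a clathrin adaptor subunit, and KIFAP3, an accessory subunit of kinesin-2, rose by 0.65 ± 0.11 and 0.74 ± 0.14. TMEM200A, ELFN2, UTS2B, TMEM132A, PCBP4, ASXL3 and MAMLD1 were also among the 33 called besides SOX9, with log2 fold changes between 0.83 and 2.73. With a library left out, TMPRSS4 and ELFN2 were called in 5 of the 6 fits, CLGN and TMEM200A in 4, MCOLN2 in 2, AP1M1, PCBP4 and MAMLD1 in 1, and LPAR1, GDF11, KIFAP3, UTS2B, TMEM132A and ASXL3 in 0.

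**Figure D2:**
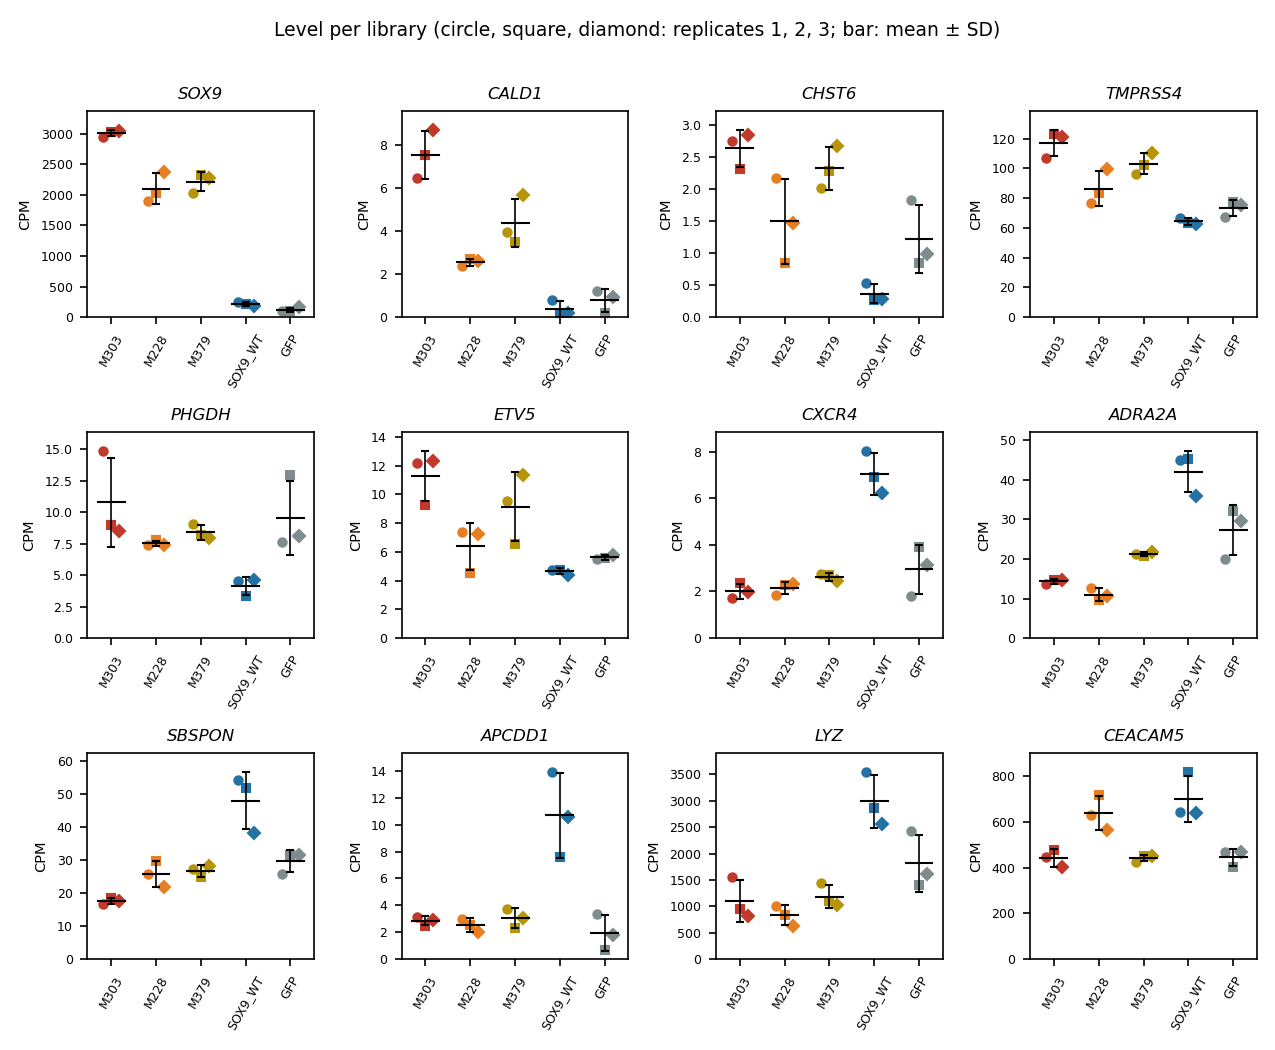
Level in CPM of SOX9 and other called genes in each of the 15 libraries, with the mean and SD (n = 3) of each group as black bars. M303 is farthest left and GFP farthest right. The 3 M303 libraries do not overlap the 3 SOX9_WT libraries in any panel. For genes named by the size of their fold change, this was a condition of choice.

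The receptor genes CXCR4, ADRA2A, NMUR2 and DRD2 and the ligand gene VTCN1 fell. CXCR4 (ENSG00000121966), the receptor for the chemokine CXCL12, had 1.70, 2.35 and 1.99 CPM in M303 and 8.02, 6.92 and 6.21 CPM in SOX9_WT (-1.82 ± 0.22, adjusted p = 0.00121). ADRA2A (ENSG00000150594), an alpha-2 adrenergic receptor, had 13.6, 14.7 and 14.8 CPM in M303 and 44.9, 45.2 and 36.0 CPM in SOX9_WT (-1.55 ± 0.16, adjusted p = 0.000473). NMUR2, a receptor for neuromedin U, had 34.2, 33.8 and 34.9 CPM in M303 and 54.2, 63.8 and 57.8 CPM in SOX9_WT (-0.77 ± 0.11, adjusted p = 0.0065). The M303 libraries of these 3 receptors lay close together and below every SOX9_WT library. DRD2, a dopamine receptor, fell by 2.56 on the log2 scale (SE 0.52, adjusted p = 0.0444) with 13, 12 and 4 reads in M303 and 81, 21 and 7 in SOX9_WT. Of 20 tested receptor genes for amines, peptides and lipids, ADRA2A and NMUR2 were called lower and LPAR1 higher, and the median was -0.14. VTCN1 (ENSG00000134258), a B7-family inhibitory ligand, had the lowest fold change of a called gene, at -3.70 ± 0.70 (adjusted p = 0.0331), with 2, 5 and 5 reads in M303 and 86, 14 and 7 in SOX9_WT. SOX9_WT replicate 1 stood above the other SOX9_WT libraries in DRD2 and VTCN1, and each was called in 1 of the 6 fits with a library left out. CXCR4 and ADRA2A were called in all 6 and NMUR2 in 5.

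MUC12 and MUC7 were the mucin genes that fell. MUC12, a membrane mucin of the colon, had 54.2, 107 and 66.5 CPM in M303 and 164, 220 and 149 CPM in SOX9_WT (-1.23 ± 0.23, adjusted p = 0.0352). MUC7 (ENSG00000171195), a secreted mucin known from saliva, was near the limit of detection in M303, with 8, 1 and 5 reads, against 24, 18 and 10 reads in SOX9_WT (-2.65 ± 0.45, adjusted p = 0.0193). MUC17 and MUC13, membrane mucins of enterocytes, were called only with the block (-1.85 ± 0.43, adjusted p = 0.0364 with the block and 0.0846 without it, and -0.59 ± 0.16, adjusted p = 0.0323 with it and 0.172 without it). Of 10 mucins tested, 9 had a fold change below 0 and the median was -0.50, against 0.01 over all genes. MUC2, the gel-forming mucin of goblet cells, was not called, with 115, 156 and 98.2 CPM in M303 and 82.3, 248 and 165 CPM in SOX9_WT. MUC12 and MUC17 are neighbouring paralogs with repeats, so reads may be divided between them. MUC12 and MUC7 were each called in 1 of the 6 fits with a library left out. MUC7 and VTCN1 had the lowest fold changes of the called genes named here, and the 250 bases before their RefSeq starts are at chr4:70430242-70430491, plus strand, and chr1:117210928-117211177, minus strand, of GRCh38.p14.
MUC7: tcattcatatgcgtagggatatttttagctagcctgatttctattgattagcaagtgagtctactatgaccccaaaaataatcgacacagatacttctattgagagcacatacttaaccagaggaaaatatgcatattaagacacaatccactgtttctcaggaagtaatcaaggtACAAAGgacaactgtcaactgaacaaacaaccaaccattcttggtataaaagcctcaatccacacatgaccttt
VTCN1: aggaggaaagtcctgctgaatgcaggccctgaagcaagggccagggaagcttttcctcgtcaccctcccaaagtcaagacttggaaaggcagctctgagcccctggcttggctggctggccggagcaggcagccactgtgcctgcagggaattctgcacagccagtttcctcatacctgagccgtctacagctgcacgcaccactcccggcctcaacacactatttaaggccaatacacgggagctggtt
MUC7 has ACAAAG at position -74 from the start, in capitals, and VTCN1 has neither motif in its window. The RefSeq table held a promoter for 23 of the 33 genes called higher besides SOX9 and 18 of the 28 called lower. Of these, 8 of 23 higher ones (34.8%) and 4 of 18 lower ones (22.2%) held ACAATG or ACAAAG on either strand, against 1777 of 11027 genes tested (16.1%) and 8593 of the 35116 promoters in the table (24.5%). Among genes called with the block, the order was the other way, with 17 of 85 higher ones (20%) and 27 of 104 lower ones (26%). These shares are a description and were not tested.

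LYZ, SBSPON and PLAT, which encode secreted proteins, fell. LYZ, the lysozyme of Paneth cells, had 1554, 944 and 809 CPM in M303 and 3543, 2866 and 2567 CPM in SOX9_WT (-1.44 ± 0.27, adjusted p = 0.0296). Its mean over the 6 libraries was the highest of the called genes, and 34.7% of its exon bases lie under a gene on the opposite strand, which the counting could not separate. The other Paneth genes did not follow in one direction: of 6 tested, LYZ was the 1 called, and MMP7 stood at -0.63 and REG3A at 1.55, both chosen after their values were seen. SBSPON, a secreted protein with somatomedin B and thrombospondin domains, had 16.7, 18.5 and 17.6 CPM in M303 and 54.2, 51.8 and 38.1 CPM in SOX9_WT (-1.45 ± 0.15, adjusted p = 0.000473). PLAT, tissue plasminogen activator, had 10, 7 and 8 reads in M303 and 48, 19 and 10 in SOX9_WT (-2.32 ± 0.42, adjusted p = 0.028). SBSPON was called in each of the 6 fits with a library left out, and LYZ and PLAT in 1.

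APCDD1 and TCF7 of the WNT pathway and the carcinoembryonic antigen CEACAM5 fell. APCDD1 (ENSG00000154856), a membrane inhibitor of WNT ligands that WNT signalling itself induces, had 3.16, 2.46 and 2.94 CPM in M303 and 13.9, 7.60 and 10.6 CPM in SOX9_WT (-1.91 ± 0.32, adjusted p = 0.0193). TCF7, a TCF/LEF transcription factor, had 40.0, 41.0 and 42.2 CPM in M303 and 68.6, 64.9 and 64.0 CPM in SOX9_WT (-0.68 ± 0.11, adjusted p = 0.0135). APCDD1 and TCF7 were the called members of 22 tested WNT target genes, whose median was -0.09. Over all genes tested, 0.173% were called lower. CD44, also on this list, was called lower only with the block, as given below. Of the 22, 14 had a fold change below 0 and 8 above. AXIN2 (-0.25), LGR5 (-0.67) and ZNRF3 (-0.34) lay below 0 and NOTUM (0.53) and NKD2 (0.41) above. These other WNT targets, chosen after their values were seen, were not called. CEACAM5, an adhesion molecule of colonocytes, had 447, 478 and 403 CPM in M303 and 644, 819 and 640 CPM in SOX9_WT (-0.66 ± 0.14, adjusted p = 0.047). It was the 1 called of 4 tested CEACAM genes, which are close paralogs. APCDD1 was called in 2 of the 6 fits with a library left out, and TCF7 and CEACAM5 in 0.

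The remaining genes that fell were enzymes, cytoskeletal proteins and regulators. SMPD3, a neutral sphingomyelinase that makes ceramide, had 6.36, 5.24 and 3.65 CPM in M303 and 20.9, 14.5 and 10.5 CPM in SOX9_WT (-1.59 ± 0.29, adjusted p = 0.0296). It was the 1 called of 19 tested sphingolipid genes, whose median was -0.04. ENC1, an actin-binding Kelch protein, had 278, 209 and 186 CPM in M303 and 547, 526 and 425 CPM in SOX9_WT (-1.16 ± 0.23, adjusted p = 0.0444). TPPP3, which promotes tubulin polymerization, changed by -1.32 ± 0.24, GAS7, an actin-associated protein, by -1.29 ± 0.23, STMND1, a stathmin-domain protein, by -1.66 ± 0.28, and NEFM, a neurofilament subunit, by -1.30 ± 0.25. Their adjusted p values ran from 0.02 to 0.0406, and 26.4% of NEFM's exon bases are overlapped by an antisense gene. SLC4A8, a bicarbonate transporter, changed by -1.32 ± 0.23, CYP4X1, a cytochrome P450, by -1.16 ± 0.22, and ARSG, a lysosomal sulfatase, by -1.19 ± 0.23. ZBTB18, MYRFL, HUNK, LURAP1L and RGCC also fell, and PF4, described with the chemokines, completes the 28. SMPD3 was called in 2 of the 6 fits with a library left out, STMND1, LURAP1L and PF4 in 1, and ENC1, TPPP3, GAS7, NEFM, SLC4A8, CYP4X1, ARSG, ZBTB18, MYRFL, HUNK and RGCC in 0.

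CXC chemokines, small secreted proteins that draw leukocytes through G protein-coupled receptors, were mostly lower in M303, and most calls needed the replicate block. This family was chosen after the values of some members were seen. Of 11 CXC ligand genes tested, 9 had a fold change below 0, and 10 of the 11 lie on chromosome 4. PF4, platelet factor 4, was the 1 called without the block, with 77.8, 57.7 and 60.5 CPM in M303 and 113, 108 and 121 CPM in SOX9_WT (-0.80 ± 0.16, adjusted p = 0.0444). CXCL1, which attracts neutrophils through CXCR2, had 27.1, 36.2 and 26.6 CPM in M303 and 55.7, 69.6 and 60.2 CPM in SOX9_WT (-1.04 ± 0.22, adjusted p = 0.00112 with the block and 0.0522 without it). CXCL8, known as interleukin-8, had 8.21, 14.4 and 11 CPM in M303 and 23.0, 27.6 and 27.3 CPM in SOX9_WT (-1.22 ± 0.31, adjusted p = 0.00163 with the block and 0.126 without it). CXCL8 was below every SOX9_WT library in each M303 library, although M303 replicate 1 was the lowest and replicate 2 the highest.

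PPBP, pro-platelet basic protein, had 30.5, 21.7 and 17.7 CPM in M303 and 54.2, 52.2 and 48.1 CPM in SOX9_WT (-1.14 ± 0.24, adjusted p = 0.00152 with the block and 0.0551 without it). CXCL2, CXCL3, CXCL5 and CXCL6 were likewise called only with the block, at -0.81 ± 0.22, -0.76 ± 0.18, -1.95 ± 0.41 and -1.33 ± 0.35, with adjusted p of 0.025, 0.00732, 0.0237 and 0.0498 with it and 0.182, 0.0815, 0.0551 and 0.16 without it. With the block 8 of the 11 ligands were called lower and 0 higher. Genome-wide, 0.879% of genes were called lower with the block. PF4V1 (-0.60 ± 0.35), CXCL11 (0.76 ± 0.41) and CXCL16 (0.13 ± 0.26) were not called in either fit. An antisense gene overlaps 17.3% of the exon bases of CXCL5, and its value is uncertain. CXCL1, CXCL2 and CXCL3, and PF4 and PF4V1, are similar in sequence, so reads may be divided or dropped between them. CCL2, a CC chemokine on chromosome 17, had 0, 1 and 3 reads in M303 and 29, 6 and 3 in SOX9_WT and was called only with the block (adjusted p = 0.0364 with it and 0.0638 without it). NFKB2 (0.37 ± 0.32) and NFKBIA (0.01 ± 0.18), which NF-kB induces, were not called. Of the 14 tested genes of their list, 8 had a fold change above 0 and 6 below, with a median of 0.04. With the block 5 of the 14, CCL2 included, were called lower and 0 higher. The part of NF-kB in these changes was not tested.

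**Figure D3:**
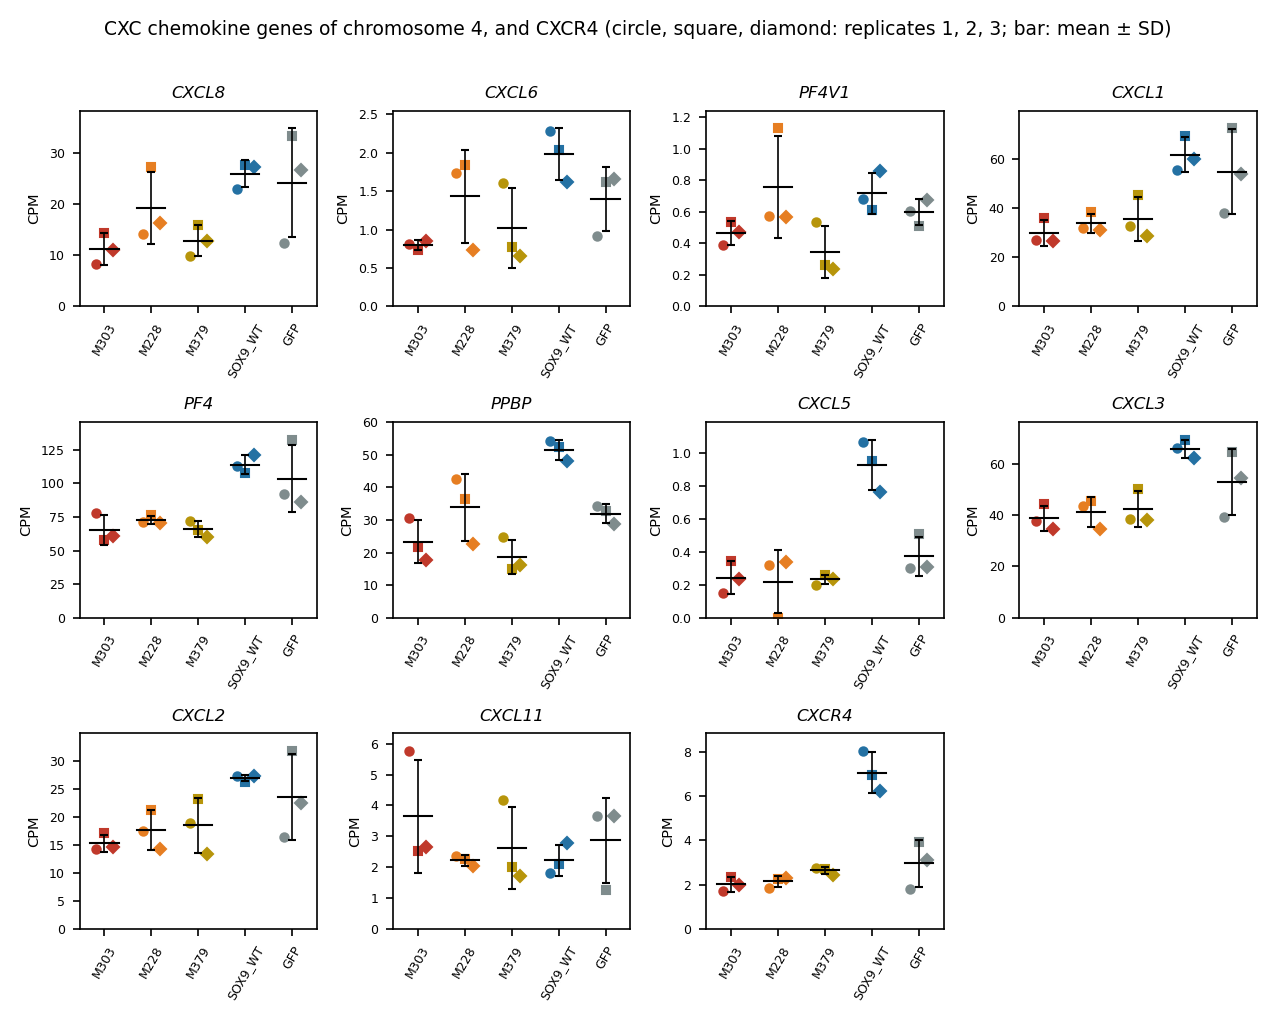
Level in CPM of the 10 tested CXC ligand genes of chromosome 4 and of CXCR4 in each library, with the mean and SD (n = 3). M303 lies below SOX9_WT without overlap for 9 of the 10 ligands and CXCR4, and CXCL11 overlaps. Over all genes tested, 18.5% did not overlap, in either direction. The family was chosen after some values were seen.

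Of 22 tested enterocyte genes, CEACAM5 was the 1 called without the block, and with the block 6 were called lower and 1 higher. Over all genes tested, 0.879% were called lower with the block and 0.724% higher. In the enterocyte list 14 fold changes were below 0 and 8 above, with a median of -0.18. Of 15 tested crypt stem cell genes, 0 were called without the block and PROM1, CD44 and AQP1, a water channel, were called lower with it. KRT20, a keratin of differentiated colonocytes, had 644, 732 and 599 CPM in M303 and 954, 1335 and 1004 CPM in SOX9_WT, and was called only with the block (-0.74 ± 0.17, adjusted p = 0.0123 with it and 0.0905 without it). SLC26A3, the chloride and bicarbonate exchanger of colonocytes, overlapped between the groups and was called only with the block (-1.42 ± 0.57, adjusted p = 0.00227 with it and 0.59 without it). SI, the sucrase-isomaltase of the brush border, went the other way, at 4.87, 3.77 and 3.23 CPM in M303 and 1.65, 1.15 and 0.955 CPM in SOX9_WT (1.61 ± 0.37, adjusted p = 0.00169 with the block and 0.0815 without it). ALPI (1.27 ± 0.39) and FABP2 (0.69 ± 0.21) of the enterocyte list were also above 0, and were called in neither fit. MYO1A, a brush border myosin, was also called only with the block (-0.53 ± 0.24, adjusted p = 0.0241 with it and 0.781 without it), and its groups overlapped. PROM1, a stem-like marker, had 59.6, 42.2 and 40.0 CPM in M303 and 120, 77.6 and 62.8 CPM in SOX9_WT (-0.88 ± 0.29, adjusted p = 0.00417 with the block and 0.389 without it). CD44, a hyaluronan receptor, had 495, 691 and 730 CPM in M303 and 873, 996 and 1032 CPM in SOX9_WT (-0.60 ± 0.20, adjusted p = 0.0212 with the block and 0.421 without it). AQP1 stood at -1.05 ± 0.24 (adjusted p = 0.0355 with the block and 0.0829 without it), and 27.8% of its exon bases are shared with another gene. GREM1, a secreted BMP antagonist, had 71.1, 121 and 91.3 CPM in M303 and 159, 186 and 175 CPM in SOX9_WT (-0.88 ± 0.22, adjusted p = 0.0353 with the block and 0.142 without it). It was the 1 called of 20 tested BMP and TGF-beta genes with the block, with a list median of -0.09.

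Among SOX9's relatives and cartilage targets, SOX6, its partner in cartilage, had 1.73, 1.31 and 1.75 CPM in M303 and 9.05, 4.48 and 3.06 CPM in SOX9_WT (-1.82 ± 0.38, adjusted p = 0.00497 with the block and 0.0513 without it). COL9A3, a chain of cartilage collagen IX, had 15.1, 21.4 and 23.0 CPM in M303 and 12.7, 5.90 and 5.64 CPM in SOX9_WT. It was called in neither fit (1.27 ± 0.30, adjusted p = 0.0641 with the block and 0.0888 without it). Without SOX9_WT replicate 1, the highest SOX9_WT library, it was called, at 1.77 (adjusted p = 0.0356). SOX6 and COL9A3 lay on opposite sides, and COL2A1 and ACAN were too low to be tested. IGFBP2, which binds insulin-like growth factors, was called only with the block, with 5.11, 9.86 and 15.8 CPM in M303 and 3.45, 2.31 and 2.20 CPM in SOX9_WT (1.91 ± 0.44, adjusted p = 0.0184 with the block and 0.0815 without it). MCOLN3, TRPA1, SATB1 and TGM2 were likewise called higher only with the block, at 1.63 to 2.41, and CLCA4, NTRK2 and LRRC32 lower, at -2.12 to -1.51. NTRK2, the receptor for brain-derived neurotrophic factor, had 4.75, 3.39 and 3.41 CPM in M303 and 21, 10.7 and 9.36 CPM in SOX9_WT. The collagen genes COL12A1 (-0.85 ± 0.25) and COL17A1 (-0.69 ± 0.20), the serpin SERPINB5 (-0.63 ± 0.17) and the hypoxia-induced NDRG1 (-0.47 ± 0.40) were called lower with the block alone, at adjusted p of 0.026, 0.0395, 0.0265 and 0.0358 with it and 0.258, 0.231, 0.174 and 1.00 without it. NDRG1 overlapped between the groups.

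Housekeeping groups had no called gene. Of 65 ribosomal protein genes tested, 61 had a fold change above 0 and the median was 0.13, while all 13 protein genes of the mitochondrial genome were below 0 with a median of -0.30. Mitochondrial genes took 4.65% to 6.32% of reads in M303 libraries and 4.94% to 7.62% in SOX9_WT libraries, and the part of this share in other results was not tested. MT-ND4, a subunit of respiratory complex I, had 9258, 13142 and 10497 CPM in M303 and 8910, 16532 and 15588 CPM in SOX9_WT, with overlap between the groups. The DNA replication and mitosis lists had medians of 0.06 and 0.08, and the heat shock list 0.09. MKI67 (-0.04) and PCNA (0.06), markers of proliferation chosen after their values were seen, were not called. Over the 552 tested genes of all lists, 19 were called, SOX9 included, and 47 with the block, against 62 (0.384%) and 259 (1.6%) of the 16160 genes tested. The lists were drawn up with earlier results of these data known, so nothing is read from this difference.

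**Figure D4:**
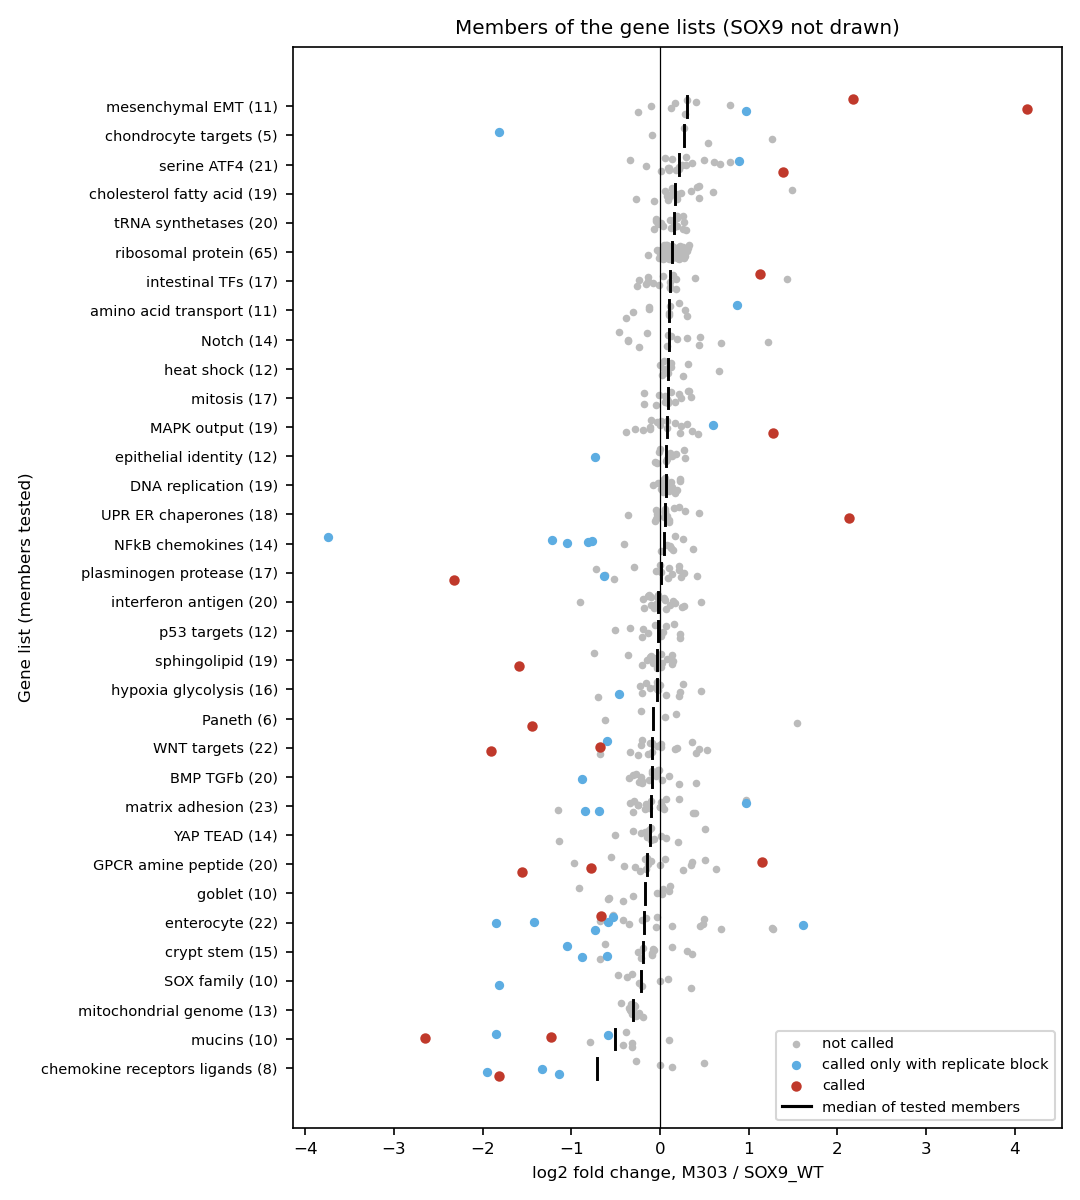
Log2 fold change of M303 over SOX9_WT for each tested member of the gene lists with 5 or more tested members; black bars are list medians, and SOX9 is not drawn. Mucins (-0.50) and chemokine receptors and ligands (-0.71) have the lowest medians and mesenchymal genes (0.31) the highest.

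The GFP control shows the levels of these genes without added SOX9. In M303 minus GFP 19 genes were called, or 0.118% of those tested (85 with the block, or 0.526%), and in SOX9_WT minus GFP 5, or 0.0309%. Without 1 library these counts ran from 4 (M303 replicate 2 left out) to 31 and from 0 (GFP replicate 2 left out) to 40, with the highest of each when GFP replicate 3 was left out. These comparisons share libraries with M303 minus SOX9_WT, and genes chosen for a gap between M303 and SOX9_WT favour a GFP mean between them. Of the 33 genes called higher in M303 than in SOX9_WT besides SOX9, the mean of GFP lay between M303 and SOX9_WT for 29 and below SOX9_WT for CD109, PCBP4, TBX2 and ASXL3. CALD1 (3.47 ± 0.46), ASXL3 (3.82 ± 0.64), PCBP4 (1.37 ± 0.22) and TMPRSS4 (0.67 ± 0.12) were also called higher in M303 than in GFP (adjusted p = 0.00725, 0.0328, 0.0283 and 0.0485). Of the 28 genes called lower, the GFP mean lay between the 2 groups for 23 and below M303 for VTCN1, APCDD1, PLAT, MUC7 and HUNK. ADRA2A was also called lower in M303 than in GFP (-0.95 ± 0.16, adjusted p = 0.0328), with 20.1, 32.2 and 29.7 CPM in GFP. APCDD1 and HUNK were instead called higher in SOX9_WT than in GFP (2.74 ± 0.38 and 1.26 ± 0.16, adjusted p = 0.0227 and 0.0197). CEACAM5 averaged 443 CPM in M303, 701 CPM in SOX9_WT and 446 CPM in GFP.

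**Figure D5:**
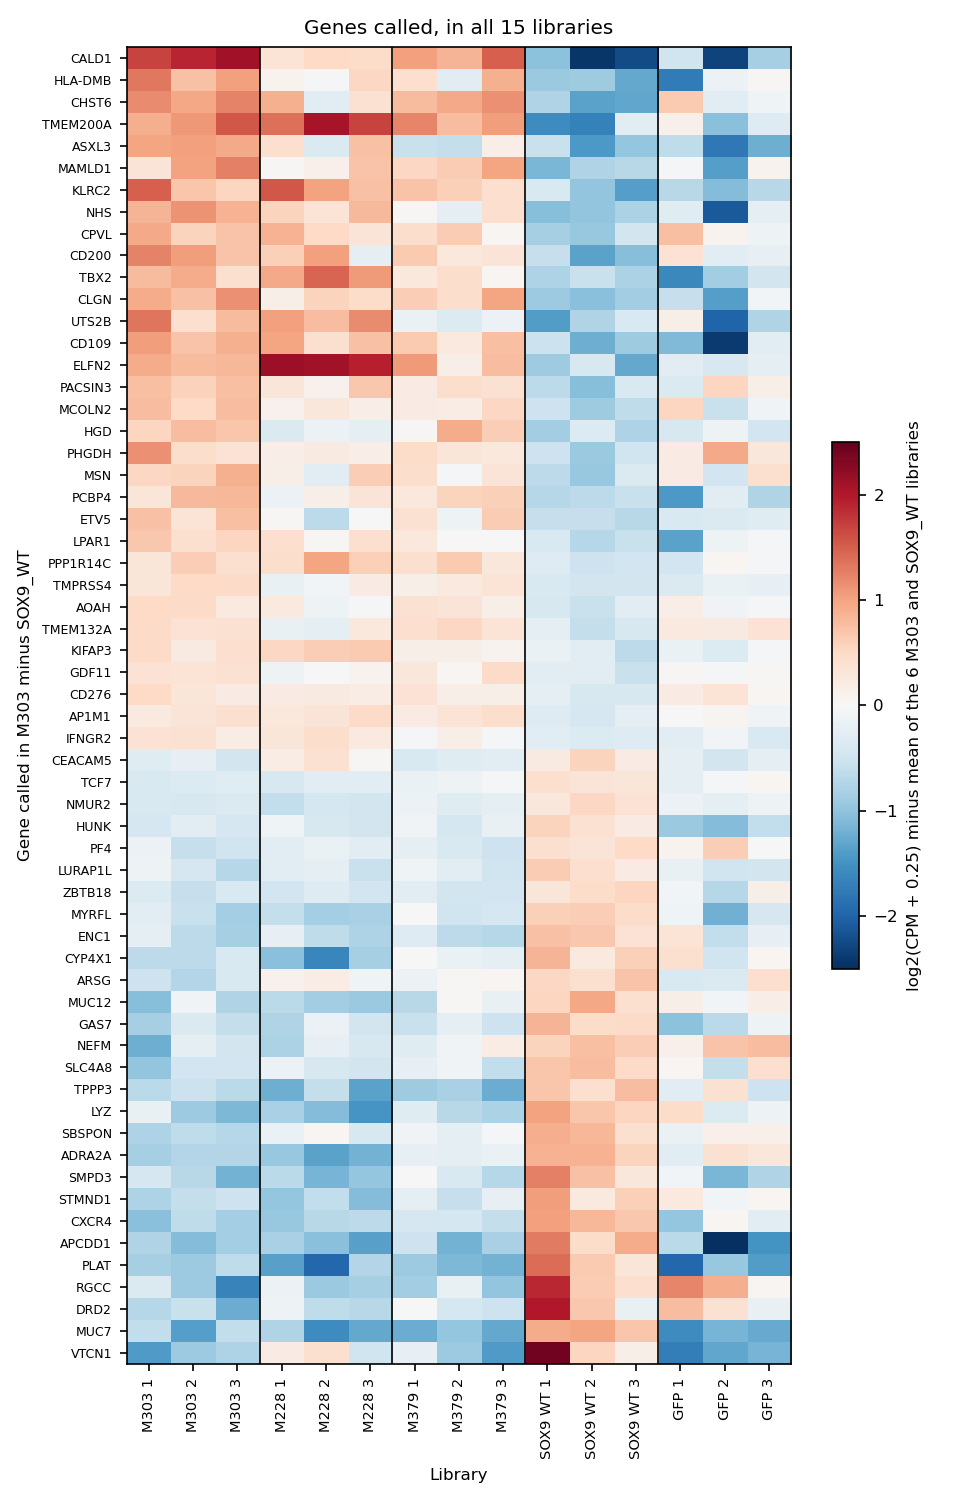
Level of called genes besides SOX9 in all 15 libraries, as log2(CPM + 0.25) minus the mean of the 6 M303 and SOX9_WT libraries; colours saturate at 2.5 in either direction. M303 and SOX9_WT separate because the genes were chosen for that difference, and the other columns show the same genes in M228, M379 and GFP.

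M303 was also compared directly with the other mutants. In M303 minus M228, 2 genes were called, or 0.0124% (14 with the block, or 0.0866%). COL9A3, the one called higher, had 15.1, 21.4 and 23.0 CPM in M303 and 3.14, 3.11 and 3.50 CPM in M228 (2.59 ± 0.33, adjusted p = 0.00702). M303 and M228 did not overlap at COL9A3, and M379 averaged 16.5 CPM there. The count of calls was 1 without M303 replicate 1 or any 1 of the M228 libraries. With the block ELFN2 was called lower in M303 than in M228 (-1.24 ± 0.19, adjusted p = 0.0344), although ELFN2 was higher in M303 than in SOX9_WT. In M303 minus M379, edgeR called 0 genes, also with the block, DESeq2 called 0, and 137 genes (0.848%) had an unadjusted p under 0.05. A gene that was not called is not thereby shown to be equal in the mutants. SOX9 itself was not called, at 0.52 ± 0.17 in M303 minus M228 and 0.44 ± 0.17 in M303 minus M379. CALD1 averaged 7.55 CPM in M303, 2.55 CPM in M228, 4.37 CPM in M379 and 0.368 CPM in SOX9_WT. None of the 61 genes was called between M303 and either mutant without the block. The means of M228 and of M379 lay on the M303 side of SOX9_WT for all 33 higher and all 28 lower genes. The direction of these differences from SOX9_WT was thus shared by M303, M228 and M379. The same SOX9_WT libraries served to choose the genes, which favours that shared side. Sizes may still differ between mutants: CALD1 stood at 1.57 ± 0.36 in M303 minus M228 and was not called. No conclusion on what is particular to M303 is drawn from side or from missing calls.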

How the data were processed

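Gene counts of 15 HT115 RNA-seq libraries were analysed. The authors deposited raw read counts per gene, made with featureCounts 2.0.1 on Ensembl 101 gene models of GRCh38, per the file headers, with no strand or read-pair option, so both strands were counted together and each mate counted as a read. STAR 2.7.0a and hg38 are named in the submitters' processing notes. A deposited normalized table was not used, and 3 of its columns match no label. Of 60671 genes, 16160 passed filterByExpr and 15098 of these have a symbol.

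One edgeR 4.0.16 quasi-likelihood model with TMM scaling (R 4.3.3, limma 3.58.1) was fitted to all 15 libraries with a mean per group. P-values were adjusted by Benjamini-Hochberg over all genes tested, and a gene was called at an adjusted p under 0.05. All adjusted p-values in the text are edgeR's unless DESeq2 is named. Where one is given with the block, the fold change and error beside it are from the fit without the block, except for ELFN2 in M303 minus M228. DESeq2 1.42.0, RLE scaling, no filter, the 2 groups alone, the replicate block and leaving out libraries were alternatives. Same-numbered M303 and SOX9_WT libraries deviated together from their group means (r from 0.101 to 0.358). The limit used was an r above 0.1, which replicate 2 barely passed. M303 replicate 2 with SOX9_WT replicate 3 had an r of 0.052. On this limit the numbers were taken as pairs. This pairing comes from the data, since the labels do not say what a number marks. Values for SOX9_WT minus GFP did not pair (lowest r -0.030), although the block was fitted to all 15 libraries, GFP included. No 2 libraries of a group agreed within sampling noise (chi-square per degree of freedom 4.04 to 97.2 over 15 pairs).

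Genes were named by rule: SOX9, the 15 highest and 15 lowest fold changes among called genes with a symbol, a mean of at least 1 CPM and no overlap, called list members, and up to 6 each way among genes called only with the block; for lists with no called member, the most abundant and most extreme members. Other called genes are named to account for most of the 62 calls; they were picked with their values known. Some results are not reported here. Members and lists were chosen with earlier results of these data known. On simulated counts for M303 minus SOX9_WT (16160 genes), edgeR found 89 of the 100 genes given a 2-unit log2 change, 53 of the 100 given 1 unit, and 5 unchanged genes. The simulated counts gave each gene the same spread in all groups and held no replicate effect. The real libraries differ in both, so these rates need not hold for them. Floors of 3 reads cover counting error only. Promoters are from RefSeq, GRCh38.p14. Figures were drawn with matplotlib 3.10.9.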

Additional observations from a re-analysis of the deposited data

Results flagged for a closer look

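COL9A3 differed between M303 and M228, which were both set against the same SOX9_WT libraries. The difference was 2.59 on the log2 scale (SE 0.33, edgeR adjusted p = 0.00702), higher in 3 of 3 M303 libraries than in any M228 library. The level is not particular to M303. COL9A3 averaged 19.8 CPM in M303, 16.5 CPM in M379, 8.08 CPM in SOX9_WT, 3.25 CPM in M228 and 2.18 CPM in GFP. M303 minus M379 was 0.26 ± 0.29 and not called.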

How the results depend on the processing

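The SOX9 difference stayed called under every alternative run (3.73 to 3.93). The 62 calls of M303 minus SOX9_WT became 64 with RLE scaling, 170 with DESeq2, 273 without a filter, 121 with the 2 groups alone, 259 with the replicate block, 9 to 33 without 1 library, 7 with replicates 2 and 3 only, and, in settings chosen after seeing the data, 229 without GFP and 219 without GFP replicate 2. In M303 minus M228 the 2 calls became 11 with DESeq2, 47 without a filter, 14 with the replicate block, 1 to 2 without 1 library, 1 with replicates 2 and 3 only, 10 without GFP and 12 without GFP replicate 2. The 0 calls of M303 minus M379 became 5 without a filter and 1 without GFP or without GFP replicate 2. The 19 calls of M303 minus GFP became 16 with RLE scaling, 89 with DESeq2, 212 without a filter, 2 with the 2 groups alone, 85 with the replicate block, 4 to 31 without 1 library and 4 with replicates 2 and 3 only. The 5 calls of SOX9_WT minus GFP, whose numbers do not pair, became 67 with DESeq2, 180 without a filter, 0 with the 2 groups alone, 79 with the replicate block, 0 to 40 without 1 library and 1 with replicates 2 and 3 only. The 19 list genes called became 20 with RLE scaling, 38 with DESeq2, 52 without a filter, 30 with the 2 groups alone, 47 with the replicate block, 5 to 12 without 1 library, 5 with replicates 2 and 3 only, 40 without GFP and 41 without GFP replicate 2. Some uncalled genes changed sign when 1 library was left out, with ranges of -0.0426 to 0.29 for SLC12A2, -0.11 to 0.012 for NARS1, -0.00265 to 0.58 for ID3, -0.12 to 0.10 for NFKBIA, -0.48 to 0.060 for MT-ND1 and -0.21 to 1.11 for CXCR6. NFKBIA stood at -0.00133 with RLE scaling, -0.00134 with DESeq2 and -0.015 with the replicate block. The cause was not tested. Depth limits scarce genes: 3 reads are 0.0896 to 0.142 CPM in M303 and 0.146 to 0.287 CPM in SOX9_WT, and up to 0.424 CPM in M228 and 0.912 CPM in GFP.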
